A study of Mus musculus with 15 samples.

Results

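The 10 genes described here encode proteins that degrade extracellular ATP, that form and sense adenosine, or that sense extracellular nucleotides. They were chosen as a set by name, after *Entpd1* and *Entpd3* had been seen to move in opposite directions in these libraries, and are 10 of 53465 genes counted (25254 had at least 1 count in any library). Each of the 10 symbols matched 1 Ensembl identifier. The set holds the ectonucleotidases *Entpd1*, *Entpd3* and *Nt5e*, the adenosine receptors *Adora2a*, *Adora2b* and *Adora3*, the ATP-gated channels *P2rx4* and *P2rx7*, and the nucleotide receptors *P2ry2* and *P2ry6*. Because their levels were part of the choice, *Entpd1* and *Entpd3* are given as measured values with no test, and tests are given for the 8 other members.

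Bone marrow-derived macrophages (BMDMs) were grown from mouse bone marrow for 7 days with macrophage colony-stimulating factor (M-CSF, 20 ng/ml), and RNA was sequenced after a further 24 h. There were 5 groups of 3 libraries: no added cytokine (control), IL-4 (10 ng/ml), the same IL-4 with co-addition of IL-6 (40 ng/ml; IL-4/IL-6), IL-13 (40 ng/ml), and the same IL-13 with IL-6 (40 ng/ml; IL-13/IL-6). IL-4 and IL-13 are type 2 cytokines that drive M2-like polarization, and IL-6 is a cytokine of inflammation; the comparisons ask how each type 2 cytokine moved these genes and what co-addition of IL-6 did on top of it. No library with IL-6 alone was analysed here, so an effect of IL-6 is always read on top of IL-4 or of IL-13. By the study's methods, the marrow came from mice aged 8 to 12 weeks, in all groups alike. The study calls the libraries of a group biological replicates, and how many animals the marrow came from is not given in the sources used here.

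The libraries held between 17001352 and 18918686 counts. The macrophage markers *Csf1r*, *Cd68*, *Adgre1* and *Lyz2* had means of 844 normalized CPM or more (CPM, counts scaled to library totals, here with TMM factors) in all 5 groups, as the label BMDM asks, but the 8 markers listed did not keep one level. *Lyz2* had means of 14924 normalized CPM in control, 9698 in IL-4, 6852 in IL-4/IL-6, 12745 in IL-13 and 8692 in IL-13/IL-6. The mannose receptor gene *Mrc1*, in the same order, had 196, 996, 8717, 496 and 5715, *Fcgr1* had 155, 101, 217, 188 and 479, and *Mertk* had 143, 8.27, 12.7, 14.5 and 17.9. *Itgam* lay between 169 and 252. The part of these moves in the differences of the members was not tested. The control libraries also carried RNA of genes that mark other marrow cells. The summed level of 7 granulocyte and precursor markers was 382 to 456 normalized CPM in control and 0.979 to 2.04 in the 12 cytokine-treated libraries. Likewise 6 stromal markers summed to 16.6 to 21.4 normalized CPM in control and to at most 0.375 elsewhere. The platelet gene *Itga2b* had a mean of 114 normalized CPM in control and between 1.47 and 1.72 in the other groups. Every comparison with control therefore sets cultures with these markers against cultures nearly free of them, and in bulk RNA fewer cells of a type and less RNA per cell cannot be told apart. Between a cytokine with and without IL-6, the granulocyte, stromal, *Itga2b*, *Gp9* and *Gp1bb* levels were low on both sides. Other marker genes moved with IL-6, as the endothelial list had a median sum of 10.8 normalized CPM in IL-4, 14.6 in IL-4/IL-6, 23.0 in IL-13 and 40.9 in IL-13/IL-6, beside 12.3 in control. Nearly all of that sum was *Kdr*, with means of 9.52 normalized CPM in IL-4 and 39.5 in IL-13/IL-6. The group means of *Cdh5* and *Tek* were at most 1.13 and 0.272. The platelet gene *Pf4* went from 68.7 to 235 normalized CPM on top of IL-4 and from 75.5 to 390.1 on top of IL-13, and *Kit*, of mast cells and precursors, from 3.75 to 1.20 and from 6.87 to 2.48. The part of these cells in the differences with IL-6 was not tested.

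**Figure D1:**
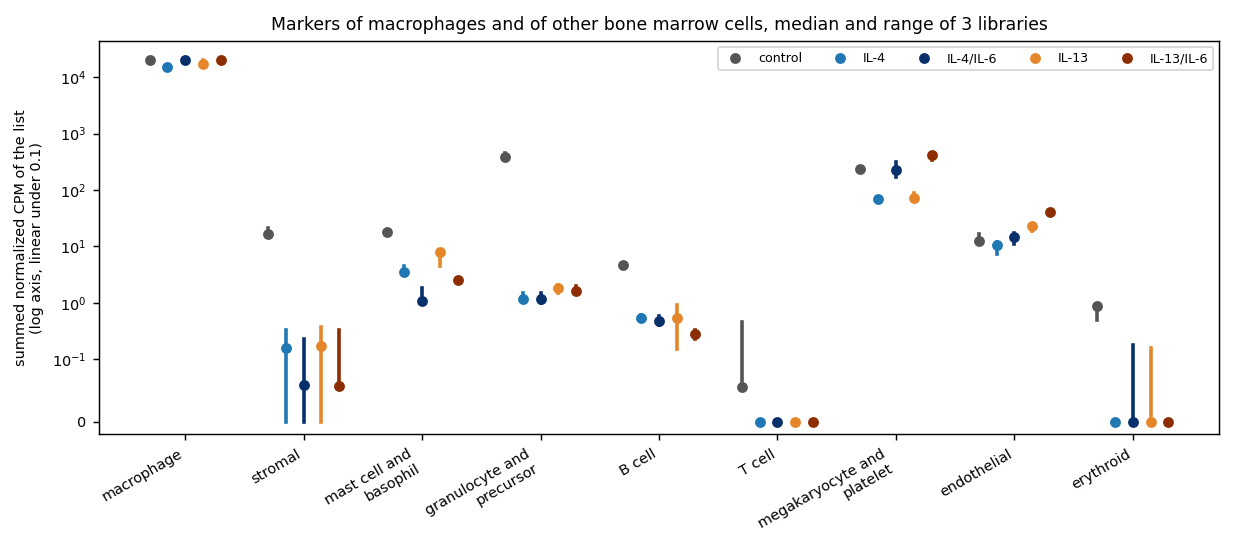
Summed normalized CPM of lists of marker genes (vertical axis, logarithmic above 0.1 and linear below), with the median of 3 libraries as a point and their range as a line, for the 5 groups. Granulocyte, stromal, B cell and mast cell lists are highest in control, and the macrophage list lies between 15198 and 21021 in all 15 libraries, while *Lyz2* is lower and *Mrc1* higher with IL-6 within that list. The rise of the megakaryocyte list with IL-6 comes from *Pf4*, with means of 68.7 normalized CPM in IL-4 libraries and 235 in those with IL-4/IL-6.

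ATP that leaves a cell acts on 2 families of receptors, the P2X channels, which ATP opens, and the P2Y receptors, which couple to G proteins and answer to ATP, ADP, UTP or UDP. Ectonucleotidases on the cell surface cut the signal off: NTPDases such as CD39 (*Entpd1*) and NTPDase3 (*Entpd3*) remove phosphates from ATP and ADP, and CD73 (*Nt5e*) turns AMP into adenosine. Adenosine then acts on its own receptors, of which those encoded by *Adora2a* and *Adora2b* raise cyclic AMP and restrain inflammatory output of macrophages, and that of *Adora3* lowers it. P2X7 is best known in macrophages for setting off the NLRP3 inflammasome.

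Levels of different genes can be set side by side only per length, as FPKM (fragments divided by the gene length and by the library total). On that scale *P2ry6* was the highest member in every group, from 45.5 ± 0.799 FPKM in control (SD, n = 3, as for all means here) to 115 ± 9.51 in IL-4/IL-6. *P2rx4* came next in all groups, at 41.6 ± 1.37 FPKM in control and 17.2 ± 0.487 in IL-4/IL-6. *Entpd1* was the third of the 10 in control at 26.4 ± 1.12 FPKM and only the seventh in IL-4/IL-6 at 0.793 ± 0.153. Among the adenosine receptors, control libraries had 1.15 ± 0.281 FPKM of *Adora2a* and 0.822 ± 0.178 of *Adora2b*, while IL-4 libraries had 0.0364 ± 0.0321 and 9.98 ± 1.05. *Nt5e* was low throughout, with 0.101 ± 0.0233 FPKM in control and at most 0.0251 ± 0.0214 in the other groups.

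**Figure D2:**
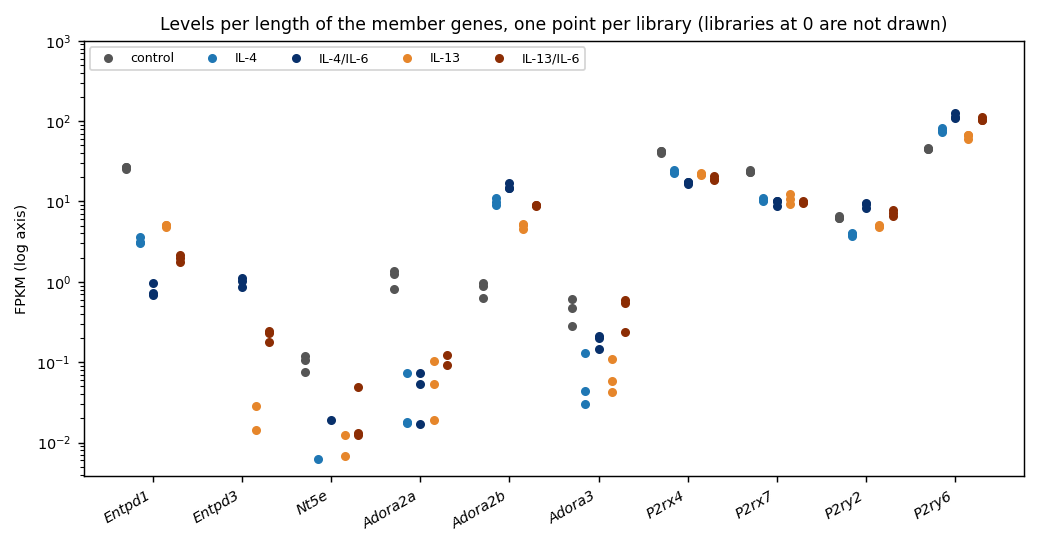
FPKM of each member (logarithmic vertical axis), one point per library, for the 5 groups in the order control, IL-4, IL-4/IL-6, IL-13 and IL-13/IL-6. *P2ry6* and *P2rx4* lie above 10 FPKM in every library, and *Adora2b* moves from under 1 FPKM in control to 14.5 to 16.8 in IL-4/IL-6; libraries at 0, among them all control and IL-4 libraries of *Entpd3*, cannot be drawn on this axis.

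Among the 8 members tested, 2 were called higher and 6, *Nt5e* and *Adora2a* included, lower in IL-4 than in control, by the quasi-likelihood test of edgeR at an adjusted p (Benjamini-Hochberg, over 13938 genes) under 0.05. Over all genes tested, 32.1% were called higher and 35.9% lower in that comparison. With IL-13 the same split of 2 and 6 was found, against 29.0% higher and 31.1% lower over all genes. *Nt5e* and *Adora2a* reached the minimum count only in the control libraries and so had to be lower elsewhere. Without them, 4 of 6 members were lower and 2 higher with either cytokine. Co-addition of IL-6 to IL-4 raised 4 members and lowered 1, with 20.7% of all genes called higher and 18.7% lower. Co-addition of IL-6 to IL-13 raised 4 members and lowered 0 in edgeR (0 also at an unadjusted p under 0.05, and 0 with DESeq2), with 12.1% and 13.5% over all genes. The median log2 fold change of the 8 members was 0.69 on co-addition of IL-6 to IL-4 and 0.71 on its co-addition to IL-13, beside 0.04 and 0.01 for all genes. The comparisons with control share the same 3 control libraries, so that the like values for IL-4 and IL-13 are not independent of each other.

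**Figure D3:**
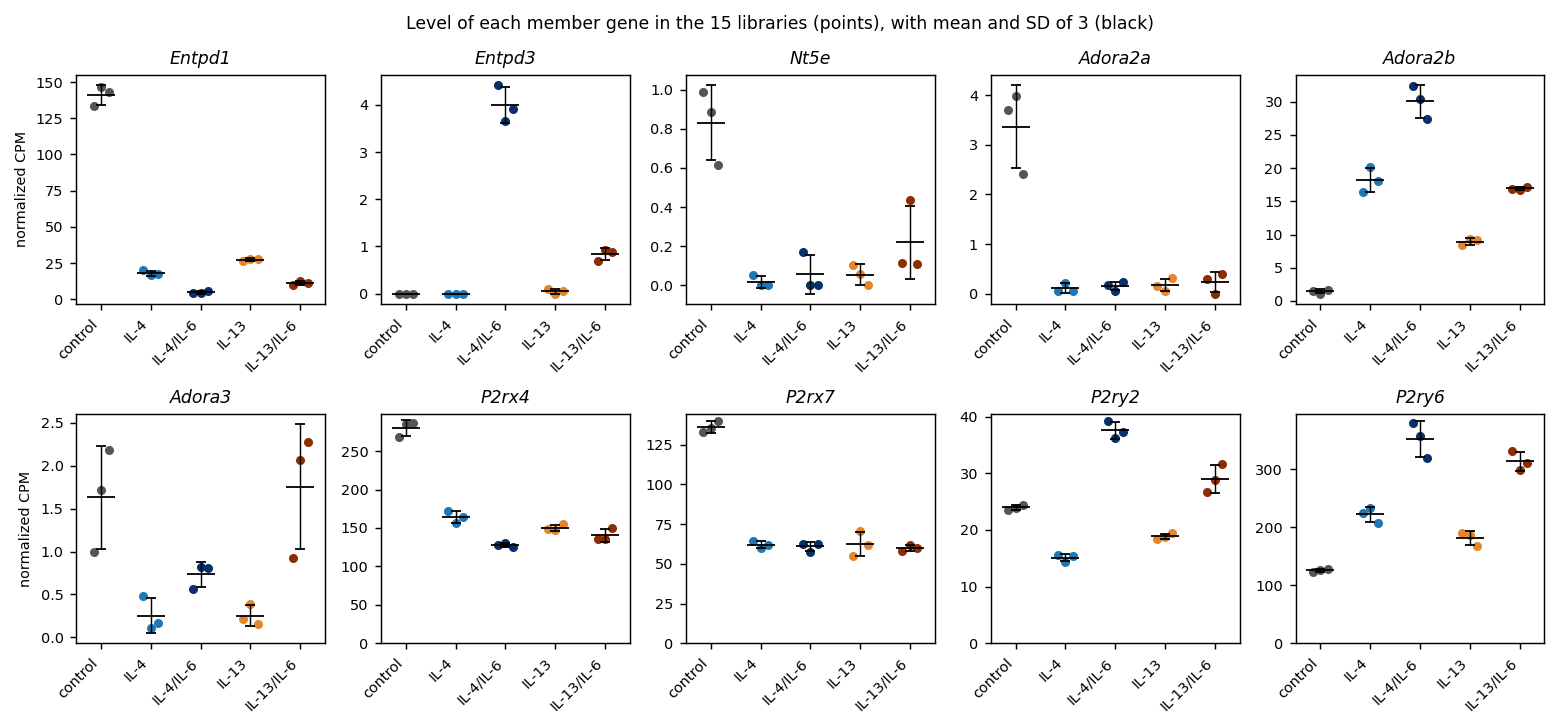
Normalized CPM (linear vertical axis, one scale per gene) of the 10 members in the 15 libraries, with each library as a point and the mean and SD of 3 libraries in black. *Entpd1* is highest in control and lowest in IL-4/IL-6, *Entpd3* is at or near 0 outside the groups with IL-6, and *Adora2b*, *P2ry2* and *P2ry6* are higher with IL-6 than without it.

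Of the ectonucleotidases, *Entpd1* (ENSMUSG00000048120, chromosome 19, 40612366 to 40741602 of GRCm38) encodes CD39, the main enzyme that removes extracellular ATP at the surface of many immune cells. Its level was 133, 147 and 143 normalized CPM in the control libraries and 20.0, 16.7 and 17.2 in IL-4. With IL-4/IL-6 it was 4.03, 4.48 and 5.53 normalized CPM, below every other library. The IL-13 libraries had 26.3, 27.6 and 28.0 normalized CPM, and IL-13/IL-6 had 10.1, 12.4 and 11.5. The groups stood in the order control, IL-13, IL-4, IL-13/IL-6 and IL-4/IL-6, and no neighbors in this order overlapped. The ratio of mean levels was 7.85-fold lower in IL-4 and 5.17-fold lower in IL-13 than in control. IL-6 took it a further 3.84-fold down from IL-4 and 2.41-fold down from IL-13, and these ratios moved by less than their replicate spread with unscaled CPM, with DESeq2's size factors or with the deposited FPKM. The level in control cannot be told apart from a share held by the other marrow cells named above.

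*Entpd3* (ENSMUSG00000041608, chromosome 9, 120539818 to 120568327) encodes NTPDase3, which cuts ATP and ADP and is otherwise best known from neurons and pancreatic islets. No count was seen in any control or IL-4 library, where the limit that a count of 0 allows (3 counts) lies between 0.156 and 0.168 normalized CPM. The IL-4/IL-6 libraries held 78, 62 and 68 counts, or 4.42, 3.65 and 3.92 normalized CPM. The IL-13 libraries held 2, 0 and 1 counts and the IL-13/IL-6 libraries 12, 17 and 16, or 0.694, 0.922 and 0.890 normalized CPM. Against 3 counts per library, the mean in IL-4/IL-6 was at least 24.5-fold higher than in IL-4. For IL-13/IL-6 over IL-13 the ratio was 15.8, which rests on a total of 3 counts in IL-13, so that its size is uncertain. Both groups with IL-6 lay above all groups without it, and IL-4/IL-6 lay above IL-13/IL-6 with no overlap. Per length, *Entpd3* stood at 1.13, 0.873 and 1.02 FPKM in the IL-4/IL-6 libraries, beside 0.691, 0.720 and 0.969 FPKM of *Entpd1*. In IL-13/IL-6 *Entpd1* remained the higher of the pair, at 1.98 ± 0.214 FPKM against 0.217 ± 0.0334. The level of *Entpd3* in its highest group was thus near that to which *Entpd1* had fallen, and far under the 26.4 FPKM of *Entpd1* in control.

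The promoters of this pair are printed because of the opposite moves for which it was chosen, which these groups show on co-addition of IL-6. A further reason is that IL-4, IL-13 and IL-6 signal through STAT factors, whose sites have the core letters TTC and GAA. These are set 4 bases (the spacing that STAT6 prefers) or 3 bases apart. Each sequence is the 250 bases before a RefSeq transcript start (GRCm38.p6), read 5′ to 3′ on the strand of the gene, and capitals mark TGANTCA, the core letters bound by AP-1 factors, which was searched after the sequences had been seen.
Entpd3 (chr9:120539568-120539817, plus strand): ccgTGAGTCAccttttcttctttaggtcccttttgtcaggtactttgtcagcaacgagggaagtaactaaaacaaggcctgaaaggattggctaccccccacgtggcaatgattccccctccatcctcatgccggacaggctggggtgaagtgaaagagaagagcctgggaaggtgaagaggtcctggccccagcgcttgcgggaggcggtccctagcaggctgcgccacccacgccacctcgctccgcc
Entpd1, upstream start (chr19:40612116-40612365, plus strand): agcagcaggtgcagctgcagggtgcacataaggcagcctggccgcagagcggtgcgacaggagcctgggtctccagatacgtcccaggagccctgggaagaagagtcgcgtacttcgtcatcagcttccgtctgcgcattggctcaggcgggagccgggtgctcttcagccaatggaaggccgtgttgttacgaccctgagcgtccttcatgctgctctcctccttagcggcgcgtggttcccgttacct
Entpd1, second start (chr19:40659520-40659769, plus strand): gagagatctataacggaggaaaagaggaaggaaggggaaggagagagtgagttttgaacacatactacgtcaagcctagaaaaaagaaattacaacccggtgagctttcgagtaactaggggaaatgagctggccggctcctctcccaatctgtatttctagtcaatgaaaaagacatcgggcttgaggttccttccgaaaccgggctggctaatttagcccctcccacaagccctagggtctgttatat
Adora3 (chr3:105904171-105904420, plus strand): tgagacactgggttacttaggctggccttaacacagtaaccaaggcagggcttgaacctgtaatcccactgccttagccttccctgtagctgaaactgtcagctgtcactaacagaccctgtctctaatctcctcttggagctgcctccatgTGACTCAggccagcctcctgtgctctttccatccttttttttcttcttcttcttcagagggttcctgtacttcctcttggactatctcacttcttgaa

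The sequence of *Adora3* is shown as another member with these letters. All 3 motifs read the same on both strands, so 1 search covers both. Windows of 300 bases, from 250 before to 50 after a start, were found for 8 of the 10 members (11 starts; *Adora2a* and *P2ry6* were not matched). The STAT core was in 0 of these 11 windows with 4 bases between its ends and in 0 with 3, and 6.95% and 8.30% of all 32851 windows held them. At shares this low, 11 windows, some of which overlap, are too few to read a lack of the core from this. TGANTCA was in 3 of the 11, at -247 of *Entpd3*, at -98 of *Adora3* and at -249 of the upstream start of *P2rx7*, and in 7.81% of all windows. Of the 3 members with these letters, *Entpd3* was higher with IL-6, *Adora3* was higher on top of IL-13 with an unstable call on top of IL-4 (given below), and *P2rx7* did not pass the test, while *Adora2b* and *P2ry2* were higher with IL-6 and had none in their windows. No relation of the letters to IL-6 was tested. These are matches of letters in a short window and show neither a bound site nor the lack of one.

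*Nt5e* (ENSMUSG00000032420, chromosome 9, 88327197 to 88372092) encodes CD73, the enzyme that makes adenosine from AMP. The control libraries held 19, 16 and 11 counts, the IL-4 libraries 1, 0 and 0, and the IL-13 libraries 2, 1 and 0. With IL-6 the counts were 3, 0 and 0 on top of IL-4 and 2, 8 and 2 on top of IL-13. The level in control was 46.6-fold that in IL-4 and 15.3-fold that in IL-13. These ratios rest on totals of 1 count in IL-4 and 3 in IL-13, so that their size is uncertain. They are descriptions, and the calls counted above are not used as tests of this gene, since only the control libraries brought it over the minimum count. *Nt5e* is also a gene of stromal and lymphoid cells. The stromal list was higher in the same control libraries, as was the B cell list (sums of 4.43 to 5.10 normalized CPM against at most 0.901 elsewhere). The T cell list summed to at most 0.449 in any library. The part of these cells in the result was not tested. The difference of IL-13/IL-6 from IL-13 did not pass edgeR's test (adjusted p = 0.184), and the lowest libraries with IL-6 held the same 2 counts as the highest without.

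Of the adenosine receptors, *Adora2b* (ENSMUSG00000018500, chromosome 11, 62248984 to 62266453), the low-affinity receptor that answers to high adenosine, was the one raised by both type 2 cytokines. Its level was 1.56, 1.11 and 1.68 normalized CPM in control, 16.4, 20.1 and 18.1 in IL-4, and 32.3, 30.4 and 27.4 in IL-4/IL-6. It was 8.41, 9.29 and 9.12 normalized CPM in IL-13 and 16.9, 16.8 and 17.2 in IL-13/IL-6. Each of these groups lay apart from the next in order except IL-4 and IL-13/IL-6, which overlapped. The log2 fold change over control was 3.64 (standard error 0.144, edgeR adjusted p = 9.42e-13) for IL-4 and 2.62 (standard error 0.151, edgeR adjusted p = 1.73e-10) for IL-13. Co-addition of IL-6 raised it by a further 0.72 on the log2 scale with IL-4 (standard error 0.105, edgeR adjusted p = 2.41e-05) and by 0.92 with IL-13 (standard error 0.113, edgeR adjusted p = 6.32e-06). The effect of IL-6 did not pass the test of a difference between IL-13 and IL-4, at a log2 difference of 0.20 with an interval of -0.10 to 0.50 (estimate ± 1.96 standard errors, as for all intervals of log2 values, edgeR adjusted p = 0.582). The endothelial marker list, nearly all *Kdr*, was also higher with IL-13 and higher still with IL-13/IL-6. In IL-4 it was lower than in control (median sums of 10.8 and 12.3 normalized CPM). Its part in the result was not tested.

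*Adora2a* (ENSMUSG00000020178, chromosome 10, 75316877 to 75334784), the high-affinity receptor that also raises cyclic AMP, went the other way. The control libraries had 3.70, 3.99 and 2.41 normalized CPM (43 to 72 counts), whereas each of the 12 cytokine-treated libraries held at most 7 counts. As with *Nt5e*, only control reached the minimum count. The lower levels with the cytokines are therefore a description, and the calls counted above are not used as tests of this gene. No change with IL-6 was detectable at this depth, with intervals of -1.42 to 2.36 on the log2 scale for IL-4 and -1.26 to 1.89 for IL-13. The granulocyte, stromal and B cell markers moved the same way between control and the other groups, and their part in the result was not tested.

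*Adora3* (ENSMUSG00000000562, chromosome 3, 105870858 to 105908926), the receptor that lowers cyclic AMP, was rare in all groups. Its counts were 19, 31 and 39 in control, 9, 2 and 3 in IL-4 and 4, 7 and 3 in IL-13. With IL-6 they were 10, 14 and 14 on top of IL-4 and 16, 38 and 41 on top of IL-13, and the IL-13/IL-6 libraries overlapped the control libraries. Compared with control, the log2 fold change was -2.65 (standard error 0.512, edgeR adjusted p = 0.000223) for IL-4 and -2.66 (standard error 0.512, edgeR adjusted p = 0.000259) for IL-13. The 6 mast cell and basophil markers summed to 16.2 to 18.8 normalized CPM in control, 3.49 to 4.5 in IL-4 and 4.45 to 8.55 in IL-13. In IL-4 and in IL-13, 5 of the 6 had at most 3 counts in any library, and the sums were nearly all *Kit*. The granulocyte and stromal lists were also highest in control, and the part of all these cells in the result was not tested. IL-6 raised *Adora3* by 2.78 on the log2 scale on top of IL-13 (standard error 0.508, edgeR adjusted p = 0.000463). On top of IL-4 the log2 fold change was 1.5 (standard error 0.574, edgeR adjusted p = 0.0469), a call lost when any of 12 of the 15 libraries was left out (adjusted p up to 0.179). The 2 effects of IL-6 did not pass the test of a difference (log2 difference 1.27, interval -0.35 to 2.89, edgeR adjusted p = 0.487). *Tmigd3* shares exons with *Adora3* on the same strand (its mean was 0.210 normalized CPM), so how the authors' counting split their reads is uncertain. The fourth adenosine receptor, *Adora1*, had a count of 0 in all 15 libraries.

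Of the P2X channels, *P2rx4* and *P2rx7* lie next to each other on chromosome 5 with 16111 bases between them, and both were lower in all cytokine groups than in control. *P2rx4* (ENSMUSG00000029470, 122707544 to 122729738), a channel found in large part on lysosomes, had 268, 286 and 286 normalized CPM in control and 172, 156 and 164 in IL-4. It had 148, 148 and 155 normalized CPM in IL-13. Compared with control, its log2 fold change was -0.77 (standard error 0.0603, edgeR adjusted p = 6.23e-09) for IL-4 and -0.90 (standard error 0.0605, edgeR adjusted p = 1.22e-09) for IL-13. IL-4/IL-6 libraries were lower again, at 127, 130 and 126 normalized CPM, with a log2 fold change of -0.36 from IL-4 (standard error 0.0606, edgeR adjusted p = 0.000112). IL-13/IL-6 libraries had 136, 136 and 150 normalized CPM and overlapped those of IL-13, with a log2 fold change of -0.10 (interval -0.22 to 0.02, edgeR adjusted p = 0.284). The difference between the 2 effects of IL-6 did not pass the test (log2 difference 0.27, standard error 0.0856, edgeR adjusted p = 0.0742).

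*P2rx7* (ENSMUSG00000029468, 122643911 to 122691432), the channel that opens at high ATP, had 133, 135 and 140 normalized CPM in control. All 12 libraries with a cytokine lay between 55.2 and 70.6 normalized CPM, and the 4 cytokine groups overlapped one another. Its log2 fold change over control was -1.13 (standard error 0.0780, edgeR adjusted p = 1.14e-09) for IL-4 and -1.12 (standard error 0.0780, edgeR adjusted p = 1.76e-09) for IL-13. For IL-6 the interval of the log2 fold change was -0.18 to 0.13 on top of IL-4 (edgeR adjusted p = 0.831) and -0.21 to 0.10 on top of IL-13 (edgeR adjusted p = 0.675). Changes beyond 0.21 on the log2 scale in either direction lie outside both intervals.

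Of the P2Y receptors, *P2ry6* and *P2ry2* are also neighbors, on the minus strand of chromosome 7 with 21918 bases between them. *P2ry6* (ENSMUSG00000048779, 100937630 to 100974649), a receptor for UDP, had 123, 127 and 128 normalized CPM in control, 224, 234 and 208 in IL-4 and 190, 186 and 167 in IL-13. It had 379, 357 and 319 normalized CPM in IL-4/IL-6 and 331, 299 and 310 in IL-13/IL-6, above all libraries without IL-6. The increase over control was 0.82 on the log2 scale with IL-4 (standard error 0.0744, edgeR adjusted p = 4.27e-08) and 0.52 with IL-13 (standard error 0.0743, edgeR adjusted p = 1.13e-05). IL-6 added 0.67 on the log2 scale with IL-4 (standard error 0.0736, edgeR adjusted p = 1.07e-06) and 0.79 with IL-13 (standard error 0.0738, edgeR adjusted p = 2.53e-07). The difference between these was 0.12, with an interval of -0.08 to 0.33 (edgeR adjusted p = 0.62).

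*P2ry2* (ENSMUSG00000032860, 100996568 to 101012866), a receptor for ATP and UTP, fell with each type 2 cytokine and rose with IL-6. Its level was 23.6, 23.9 and 24.5 normalized CPM in control, 15.5, 14.4 and 15.4 in IL-4 and 18.5, 18.7 and 19.4 in IL-13. With IL-6 it was 39.2, 36.2 and 37.2 normalized CPM on top of IL-4 and 26.7, 28.8 and 31.6 on top of IL-13. None of the 5 groups overlapped another. Over control, its log2 fold change was -0.67 (standard error 0.0807, edgeR adjusted p = 1.41e-06) for IL-4 and -0.35 (standard error 0.0793, edgeR adjusted p = 0.00121) for IL-13. IL-6 raised it by 1.31 on the log2 scale with IL-4 (standard error 0.0797, edgeR adjusted p = 5.21e-10) and by 0.62 with IL-13 (standard error 0.0787, edgeR adjusted p = 9.57e-06). This was the 1 member of 8 whose effect of IL-6 differed between the 2 cytokines, by -0.69 for IL-13 against IL-4 (standard error 0.112, edgeR adjusted p = 0.000595). Over all genes 4.42% were called with a more positive effect and 3.22% with a more negative effect on top of IL-13.

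**Figure D4:**
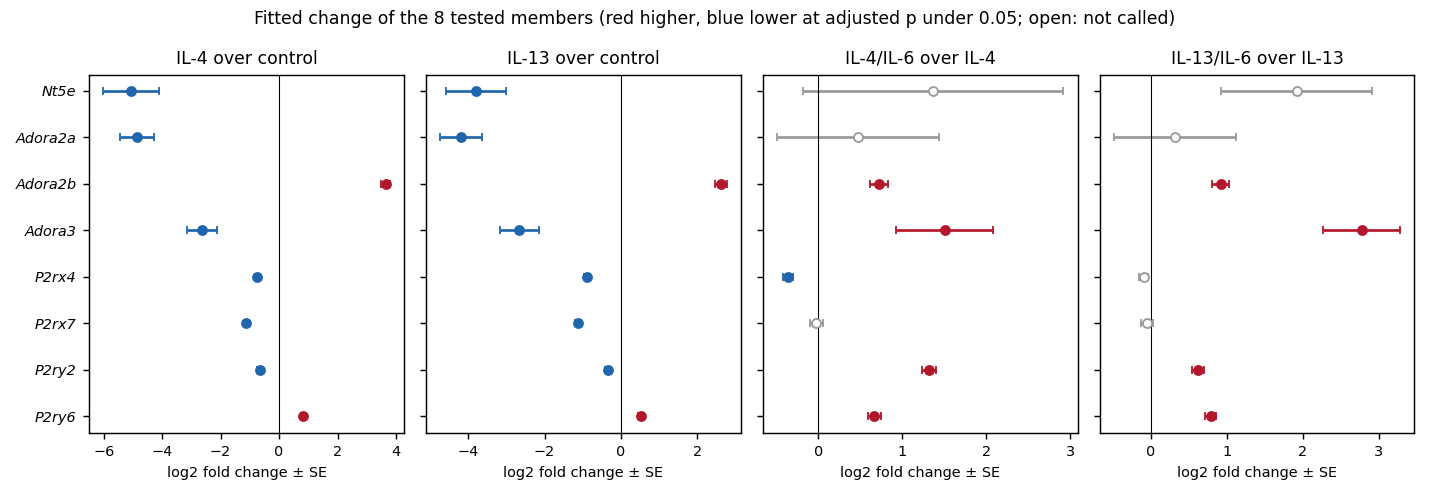
Log2 fold change (horizontal axis, scale differs by panel) of the 8 tested members in 4 comparisons, with bars of 1 standard error; red and blue points are called higher and lower by edgeR at an adjusted p under 0.05 and open gray points are not called. *Nt5e* and *Adora2a* passed the minimum count through control alone and had to be lower in the panels against control. *Adora2b* and *P2ry6* are higher in all 4 panels, and *P2ry2* is lower with IL-4 and IL-13 but higher on co-addition of IL-6.

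The other genes of the pathway were taken from lists of ectonucleotidases, adenosine uptake and clearance, the remaining receptors, ATP release and the inflammasome that P2X7 sets off. Of 45 genes, 30 had enough counts to be tested, and *P2rx2*, *P2rx3*, *P2rx5*, *P2rx6* and *P2ry4* were among the 15 that had not. IL-6 raised 10 and lowered 7 of the 30 on top of IL-4, with a median log2 fold change of -0.04, and raised 7 and lowered 6 on top of IL-13, with a median of 0.22. The shares of all genes called were 20.7% higher and 18.7% lower on top of IL-4 and 12.1% higher and 13.5% lower on top of IL-13. Compared with control, IL-4 raised 7 and lowered 15 of the 30, with 32.1% of all genes higher and 35.9% lower, and IL-13 raised 7 and lowered 13, with 29.0% higher and 31.1% lower. Genes such as *P2rx1* and *Acpp* had enough counts through control alone and had to be lower. How many of the 15 and the 13 they make up was not counted, so nothing is read from these counts beside the shares of all genes. The shorter lists below hold at most 7 tested genes each, and nothing particular to a list is read from its count.

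Among 13 other ectonucleotidases, of which 7 were tested, IL-6 raised 4 and lowered 1 with IL-4 and raised 3 and lowered 1 with IL-13 (over all genes, 20.7% higher and 18.7% lower with IL-4 and 12.1% and 13.5% with IL-13). *Cd38*, which breaks down NAD on the cell surface, had 0.268, 0.277 and 0.491 normalized CPM in IL-4 against 9.30, 13.3 and 9.73 in IL-4/IL-6. The log2 fold change was 4.94 (standard error 0.251, edgeR adjusted p = 4.98e-11), and with IL-13 it was 4.16 (standard error 0.235, edgeR adjusted p = 3.93e-10). In control *Cd38* stood at 6.60 ± 0.273 normalized CPM, so that the libraries with a type 2 cytokine alone lay below control and those with IL-6 above it, the latter without a test. *Enpp1*, which splits ATP into AMP and pyrophosphate, was higher with IL-6 by 1.57 on the log2 scale with IL-4 and by 1.69 with IL-13 (standard errors 0.0677 and 0.0684, edgeR adjusted p = 6.17e-12 and 6.79e-12). Its mean was 56.2 ± 2.59 normalized CPM in IL-4 against 167 ± 7.52 in IL-4/IL-6. *Acpp*, a phosphatase that acts on AMP, fell to 0, 0 and 1 counts in IL-13/IL-6 from 5, 5 and 5 in IL-13. This passed edgeR's test at an adjusted p of 0.0327 but was lost when any one of the IL-13 libraries or replicate 1 or 2 of IL-13/IL-6 was left out (adjusted p up to 0.107).

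In adenosine uptake and clearance, IL-6 raised 2 and lowered 2 of 7 genes tested with IL-4 and raised 1 and lowered 1 with IL-13, beside the same 20.7% and 18.7% of all genes with IL-4 and 12.1% and 13.5% with IL-13. *Slc28a2*, a sodium-coupled nucleoside transporter, went from 11.9, 11.1 and 13.3 normalized CPM in IL-4 to 23.7, 23.5 and 24.5 in IL-4/IL-6. On top of IL-13 it went from 15.7, 18.1 and 15.4 normalized CPM to 66.9, 72.0 and 74.3. The log2 fold changes were 0.98 (standard error 0.0958, edgeR adjusted p = 2.32e-07) and 2.12 (standard error 0.0912, edgeR adjusted p = 1.36e-11). The difference between them, 1.14, passed edgeR's test (standard error 0.131, adjusted p = 2.46e-05), so that this transporter responded more on top of IL-13 and *P2ry2* more on top of IL-4.

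Among the other P2Y receptors, 5 of 6 were tested, and IL-6 raised *P2ry12* and lowered *P2ry1* with either cytokine, a call in each direction beside the shares of all genes given above. *P2ry12*, an ADP receptor known from platelets and microglia, was 1.36 ± 0.139 normalized CPM in IL-4 against 5.08 ± 0.442 in IL-4/IL-6 (log2 fold change 1.89, standard error 0.191, edgeR adjusted p = 3.48e-07). With IL-13 it was 2.06 ± 0.329 and 6.21 ± 0.284 normalized CPM (log2 fold change 1.59, standard error 0.176, edgeR adjusted p = 1.96e-06). The platelet markers *Itga2b*, *Gp9* and *Gp1bb* had means of 1.47, 0.0541 and 0.0895 normalized CPM in IL-4 against 1.67, 0.0580 and 0.0573 with IL-6 added, whereas *Pf4* was higher with IL-6 as given above. *P2ry12* lies within *Med12l* on the opposite strand, and without knowing whether the counting used the strand their reads cannot be told apart. *P2ry1*, another ADP receptor, was 66.5 ± 1.17 normalized CPM in IL-4 against 23.8 ± 1.86 in IL-4/IL-6 (log2 fold change -1.48, standard error 0.0788, edgeR adjusted p = 8.75e-11). It was 32.9 ± 1.60 normalized CPM in IL-13 and 15.6 ± 0.619 in IL-13/IL-6 (log2 fold change -1.07, standard error 0.082, edgeR adjusted p = 2.15e-08). *P2rx1* was the only one of 5 other P2X genes tested, having enough counts through the control libraries, so that its lower level with IL-4 and IL-13 was fixed by that choice, and it was not called with IL-6 (edgeR adjusted p = 0.831 and 0.456). It is a channel of platelets and neutrophils, whose markers were higher in the same control libraries, and their part in the result was not tested.

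In ATP release, IL-6 raised 3 of 4 genes tested with IL-4, all but *Panx1*, and raised 2 and lowered *Panx1* with IL-13, where 20.7% and 12.1% of all genes were called higher. *Gja1*, which encodes connexin 43, a hemichannel and gap junction protein, rose by 7.29 on the log2 scale with IL-4 and by 6.22 with IL-13 (standard errors 0.193 and 0.199, edgeR adjusted p = 1.87e-14 and 3.55e-13). Its IL-13/IL-6 libraries had 122, 117 and 116 normalized CPM against 1.93, 1.91 and 0.927 in IL-13. *Slc17a9*, the vesicular nucleotide transporter, rose by 0.91 with IL-4 and by 0.36 with IL-13 on the log2 scale (standard errors 0.107 and 0.110, edgeR adjusted p = 2.19e-06 and 0.022).

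Of the 6 inflammasome genes, IL-6 lowered 3 with IL-4 (*Nlrp3*, *Pycard* and *Casp1*) and 2 with IL-13 (*Nlrp3* and *Pycard*), and the others did not pass the test, where 18.7% and 13.5% of all genes were called lower. *Nlrp3*, the sensor of the complex, was 18.0, 19.4 and 16.4 normalized CPM in IL-4 against 5.84, 4.77 and 7.54 in IL-4/IL-6. The log2 fold change was -1.56 (standard error 0.125, edgeR adjusted p = 1.8e-08) with IL-4 and -0.82 (standard error 0.107, edgeR adjusted p = 1.31e-05) with IL-13. In the same libraries *P2rx7* did not pass the test with IL-6, as given above.

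**Figure D5:**
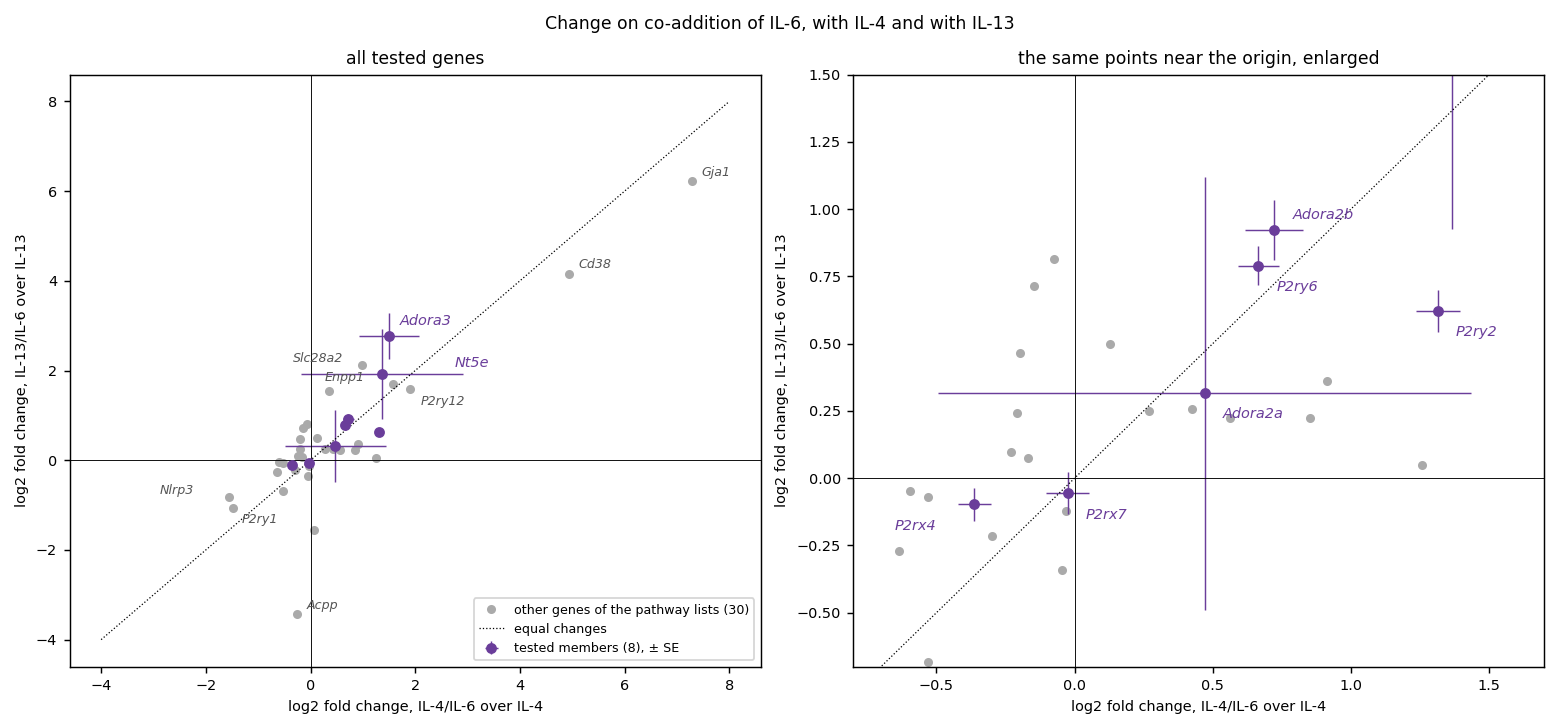
Log2 fold change on co-addition of IL-6 to IL-4 (horizontal axis) and to IL-13 (vertical axis) for the 8 tested members (purple, bars of 1 standard error) and 30 other genes of the pathway lists (gray); the right panel enlarges the range near 0. *P2ry2* lies to the right of the dotted line of equal changes and *Slc28a2* above it, while *Gja1* and *Cd38* lie farthest out. The 2 axes share no library.

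The genes whose log2 CPM followed *Entpd3* most closely over the 15 libraries were *Pvr* (Pearson r = 0.989), *Sh3gl1* (0.987) and *Ap2a2* (0.984). Unlike *Entpd3*, all of them were present without IL-6, for example *Ap2a2* at a mean of 161 normalized CPM in IL-4 against 609.8 in IL-4/IL-6. For *Entpd1* they were *Abca1* (0.996), *Rassf3* (0.995) and *Pgap1* (0.993). *Abca1*, which exports cholesterol, had means of 199.5 normalized CPM in control, 20.0 in IL-4, 4.97 in IL-4/IL-6, 36.6 in IL-13 and 12.6 in IL-13/IL-6, the same order of groups as *Entpd1*. These coefficients describe 5 groups of 3 libraries each, in which the differences between groups set most of the spread.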

How the data were processed

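RNA of 15 BMDM libraries was sequenced and first analyzed by a company. The submitters' processing notes name CASAVA, Bowtie2 2.2.3, HISAT2 2.1.0, TopHat2 and DESeq2 and the build GRCm38, without their roles. The counter, its annotation and its use of strand are not given in the sources used here. The authors deposited a matrix of raw, whole-number counts. They also deposited FPKM values for 26080 genes; dividing each count by its FPKM and by the library total gave gene lengths that were whole to within 0.035 bases. Symbols and coordinates came from the GENCODE annotation of GRCm38, and promoter sequences from RefSeq.

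Counts were analyzed with edgeR 4.0.16 (R 4.3.3): filterByExpr with a minimum count of 10 left 13938 genes, TMM factors were between 0.897 and 1.05, and contrasts were tested in one fit of the 15 libraries with the quasi-likelihood F-test and Benjamini-Hochberg adjustment. Standard errors were taken from the estimate and its F statistic. The script was tested on simulated data. The alternatives were DESeq2 1.42.0 and its size factors in edgeR, other filters on low counts, a fit of the 9 libraries of one arm, a replicate block, other scales for levels, and omission of each library. The mean chi-square per gene between replicates was between 2.64 and 44.3 (1 for counting noise alone), so each pair differed by more than counting noise.

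The members, gene lists and tests were chosen with earlier results of these data known. By rule, other pathway genes were named when called with an absolute log2 fold change above 1 in a comparison with IL-6, at most 3 a list, and the 3 genes of highest correlation with *Entpd3* and *Entpd1*. *Panx1*, *Slc17a9*, *P2rx1*, *Adora1*, *Pycard*, *Casp1* and *Tmigd3* were named after their values were seen. The floor of 3 counts covers counting error only.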

Additional observations from a re-analysis of the deposited data

Results flagged for a closer look

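Groups of 3 libraries are too small for a test of single outlying samples, and none was made. For 4 genes the effect of IL-6 on top of IL-13 differed from that on top of IL-4 by edgeR's test of the difference itself (quasi-likelihood test, Benjamini-Hochberg adjustment over all genes). For *P2ry2* the difference was -0.6919 on the log2 scale (standard error 0.112, adjusted p = 0.000595, and 3.51e-06 to 0.00387 over 20 alternatives), and IL-6 raised it in both arms with no overlap of libraries. For *Slc28a2* it was 1.1371 (standard error 0.131, adjusted p = 2.46e-05, and 7.20e-13 to 0.000149 over the alternatives). For *Nlrp3* it was 0.741 (standard error 0.165, adjusted p = 0.00833, and 0.000184 to 0.0294 over the alternatives), with the smaller decrease on top of IL-13. For *P2ry1* it was 0.4102 (standard error 0.113, adjusted p = 0.0332), again with the smaller decrease on top of IL-13, and 10 of the 20 alternatives put it past 0.05 (up to 0.0776).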

How the results depend on the processing

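The counts of members called were within 1.5 times the main value under the alternatives for the 4 comparisons of groups. With a minimum of CPM above 1 in 3 libraries *Nt5e* was not tested, and 5 members in place of 6 were lower with IL-4 and with IL-13. On leaving out each library in turn, the members called higher by IL-6 on top of IL-4 ranged from 3 to 4, and those on top of IL-13 stayed at 4. *Adora3* on top of IL-4 was the member that was lost, and it was also lost in the fit of 9 libraries. Same-numbered libraries did not deviate together (30 pairs, correlations of deviations -0.276 to 0.163, and 2 of 15 libraries closest to their own number). With the replicate number as a block, 2, 6, 2, 6, 3, 1, 4 and 0 members were called higher and lower in turn, and 0 and 1 for the difference of the IL-6 effects, so that 1 of 40 calls changed (*Adora3* on top of IL-4, adjusted p = 0.0546). For that difference, DESeq2 called 1 member higher (*P2rx4*) in place of 0, and the omissions of single libraries gave 0 to 1, the latter without IL-4/IL-6 replicate 2, and the cause was not tested. Reversals of sign arose only in values that were not called. Over the omissions the log2 fold change with IL-6 on top of IL-4 was -1.87 to 3.22 for *Nt5e* and -0.85 to 0.55 for *Acpp*, and on top of IL-13 it was -0.34 to 0.98 for *Adora2a* and -0.146 to 0.0304 for *P2rx7*. The difference of the IL-6 effects was -1.31 to 3.78 for *Nt5e*, -1.07 to 0.52 for *Adora2a* and -0.0982 to 0.0684 for *P2rx7* (0.0125 without a filter on low counts). Without TMM factors 8 of 50 member levels moved by more than 1 SD, to 16.5 CPM for *Adora2b* in IL-13/IL-6, 292 and 121 for *P2rx4*, 142 and 57.7 for *P2rx7* and 25.0 and 35.5 for *P2ry2* in control and IL-4/IL-6, and 131 for *P2ry6* in control. Depth limits *Nt5e*, *Adora2a* and *Adora3*, which had under 20 counts in most cytokine-treated libraries.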
